A study of Mus musculus with 15 samples.

Results

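Histone methylation enzymes write and remove the methyl marks on histone H3 that are laid down while the oocyte grows. The 10 genes described here were chosen by symbol: the H3K4 methyltransferases Kmt2b, Kmt2d and Setd1b, the H3K36 methyltransferase Setd2, the H3K9 methyltransferases Setdb1, Ehmt1, Ehmt2, Suv39h1 and Suv39h2, and the H3K4 demethylase Kdm1b. Each symbol matched a single identifier among the 55401 genes counted, and all 10 passed the filter on low counts that left 21009 genes for testing. They were followed in 15 libraries, each amplified with SMART-Seq2 from a pool of 6 germinal vesicle oocytes of Kunming mice, in 5 groups of 3. IVV oocytes came from antral follicles that had grown in the ovary. IVG oocytes came from preantral follicles of mice aged 12 to 14 days that were dissected and cultured singly with FSH to day 10, and IVG-NT oocytes from follicles cultured in parallel with neurotrophin-4 (NT-4) added. IVG day 6 and IVG-NT day 6 are the corresponding oocytes taken on day 6. All cultured groups therefore share dissection of the follicle and culture with added FSH, which IVV lacks. The paper calls the follicles of day 6 preantral, whereas those of IVV were antral. Between the day 6 groups and IVV, follicle stage and culture thus cannot be told apart. The age of the donors of the sequenced IVV oocytes is not given apart from the series as a whole. In their part on the NT-4 receptor the methods give mouse ages beside the collection of oocytes grown in vivo, without tying them to these libraries. A pool does not tell how many of its oocytes carried a transcript, so fewer expressing oocytes and less RNA per oocyte cannot be told apart.

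Methylation of H3K4 marks active promoters, H3K36 methylation follows transcription through gene bodies, and H3K9 methylation marks repressed chromatin and transposons. In growing oocytes DNA methylation is set mainly over transcribed regions that carry H3K36 methylation and lack H3K4 methylation, so the balance of these enzymes is part of how maternal imprints are made. SETD2 writes H3K36 trimethylation, KMT2B supplies much of the H3K4 methylation outside active promoters in the oocyte, and KDM1B removes H3K4 methylation at loci that become imprinted. SETDB1 silences endogenous retroviruses and is needed for meiosis. EHMT1 and EHMT2 work as a dimer on H3K9 dimethylation, whereas SUV39H1 and SUV39H2 write H3K9 trimethylation of pericentric heterochromatin.

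Promoter sequences in the RefSeq table (GRCm38.p6, 250 bases before to 50 after the start of transcription) were found for 8 of the 10 genes, in 10 entries, and not for Kmt2b and Setd1b. All 10 entries held the GC box GGGCGG on either strand, which is found in 35.7% of the 32851 promoters of the same length. Their GC content was 53.0% to 82.7%, against a median of 52.7% over all promoters, and they held 15 to 40 CpG dinucleotides against a median of 7. The TATA box TATAAA (13.6% of all promoters) and the element TAATTG read by the oocyte factor NOBOX (8% of all promoters) matched none of the 10 entries on either strand. A match is a description of letters and not a binding site. The 4 promoters below are shown because the levels of Kmt2d and Setdb1 divided strongly between 2 kinds of library described below, whereas those of Suv39h2 and Kdm1b did not divide in that direction. The capitals mark the GC box in either orientation, and the sequences read 5′ to 3′ on the strand of the gene.
Kmt2d: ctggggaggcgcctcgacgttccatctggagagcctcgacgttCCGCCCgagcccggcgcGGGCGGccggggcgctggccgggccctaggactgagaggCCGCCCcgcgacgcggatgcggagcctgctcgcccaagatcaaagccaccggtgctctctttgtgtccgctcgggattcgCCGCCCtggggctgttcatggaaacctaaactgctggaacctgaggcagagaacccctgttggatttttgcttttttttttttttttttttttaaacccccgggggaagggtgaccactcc
Setdb1: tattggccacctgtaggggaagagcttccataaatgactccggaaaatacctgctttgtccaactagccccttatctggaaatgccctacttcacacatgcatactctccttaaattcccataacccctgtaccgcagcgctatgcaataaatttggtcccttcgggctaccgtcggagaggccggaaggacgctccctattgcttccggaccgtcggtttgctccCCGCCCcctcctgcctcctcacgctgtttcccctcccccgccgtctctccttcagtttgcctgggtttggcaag
Suv39h2: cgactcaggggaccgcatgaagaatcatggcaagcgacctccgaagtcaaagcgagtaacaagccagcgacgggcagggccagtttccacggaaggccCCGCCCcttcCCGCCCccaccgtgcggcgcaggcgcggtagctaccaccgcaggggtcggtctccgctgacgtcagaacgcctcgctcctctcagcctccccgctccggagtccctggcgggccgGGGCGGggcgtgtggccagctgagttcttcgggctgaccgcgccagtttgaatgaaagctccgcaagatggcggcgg
Kdm1b: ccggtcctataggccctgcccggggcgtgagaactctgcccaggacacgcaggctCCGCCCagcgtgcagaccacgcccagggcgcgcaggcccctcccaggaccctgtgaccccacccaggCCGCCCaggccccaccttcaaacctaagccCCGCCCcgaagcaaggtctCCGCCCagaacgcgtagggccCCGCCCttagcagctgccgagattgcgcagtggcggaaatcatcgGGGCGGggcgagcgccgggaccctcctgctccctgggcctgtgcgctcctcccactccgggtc
The Kmt2d promoter (chr15:98871156-98871455, minus strand) holds 4 GC boxes and 27 CpG dinucleotides. That of Setdb1 (chr3:95357153-95357452, minus strand) has 1 GC box and 15 CpG, the lowest CpG count of the set together with the first entry of Suv39h1. The Suv39h2 promoter (chr2:3474937-3475236, minus strand) has 3 GC boxes, and it is the member entry with the cAMP response element TGACGTCA, found in 1.79% of all promoters. The Kdm1b promoter (chr13:47043249-47043548, plus strand) has 6 GC boxes and 26 CpG.

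The libraries differed in a way that runs across the groups. A share of 12.5% to 37.9% of counts fell on the rRNA gene CT010467.1 in 9 of them, called rRNA-rich here, which are replicates 1 and 2 of each cultured group with replicate 3 of IVV. The other 6, called rRNA-poor, had 0.187% to 0.714% there. Total counts were 38.5 to 55.6 M in the rRNA-poor libraries and 5.95 to 43.5 M in the rRNA-rich ones, the lowest being IVG-NT day 6 replicates 1 and 2 (5.95 and 7.13 M), which are the thinnest base for any value below. All 14 oocyte markers had counts in every group, with a sum of 13000 to 26800 CPM, counts per M of the library total after scaling, and 14 granulosa cell markers summed to 48.9 to 345 CPM. Because IVV holds 1 rRNA-rich library of 3 and each cultured group 2 of 3, the values within each kind of library are given beside the members with the largest or non-overlapping differences. These values rest on single libraries. Between cultured groups, a value within the rRNA-poor libraries sets 1 library against 1. Against IVV, the cultured group has 1 rRNA-poor library and IVV 1 rRNA-rich library. Like values within both kinds are therefore not a replication.

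Levels are given as FPKM, that is CPM per kilobase of exons with TMM scaling of the library. The order of the members depended on the kind of library. Setdb1 was among the 3 highest members in all 15 libraries and Kdm1b in 14. Kmt2d was among them in 8 of the 9 rRNA-rich libraries (median 68.5 FPKM) but ranked 6 or 7 in the rRNA-poor ones (median 3.08), where Suv39h2 took its place in all 6. Ehmt2 ranked 9 or 10 throughout. The group means that follow pool both kinds. Mean levels in IVV ran from 38.6 ± 8.96 for Kdm1b, 34.1 ± 25 for Setdb1 and 22.5 ± 34.2 for Kmt2d (SD, n = 3) through 18.5 ± 4.19 for Suv39h2, 14.1 ± 6.91 for Kmt2b and 8.99 ± 5.09 for Setd2 to 4.66 ± 0.904 for Ehmt1, 3.54 ± 4.8 for Setd1b, 1.22 ± 1.18 for Ehmt2 and 0.577 ± 0.451 for Suv39h1. In that order only Setd2 and Ehmt1 were neighbours whose libraries did not overlap. In IVG day 10 the order began with Setdb1 (118 ± 82.4), Kmt2d (81.8 ± 66.1) and Kdm1b (39.2 ± 10.7). Kdm1b then stood above Kmt2b (20.3 ± 7.69) without overlap, and Ehmt1 (8.51 ± 1.67) above the 2 lowest members.

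**Figure D1:**
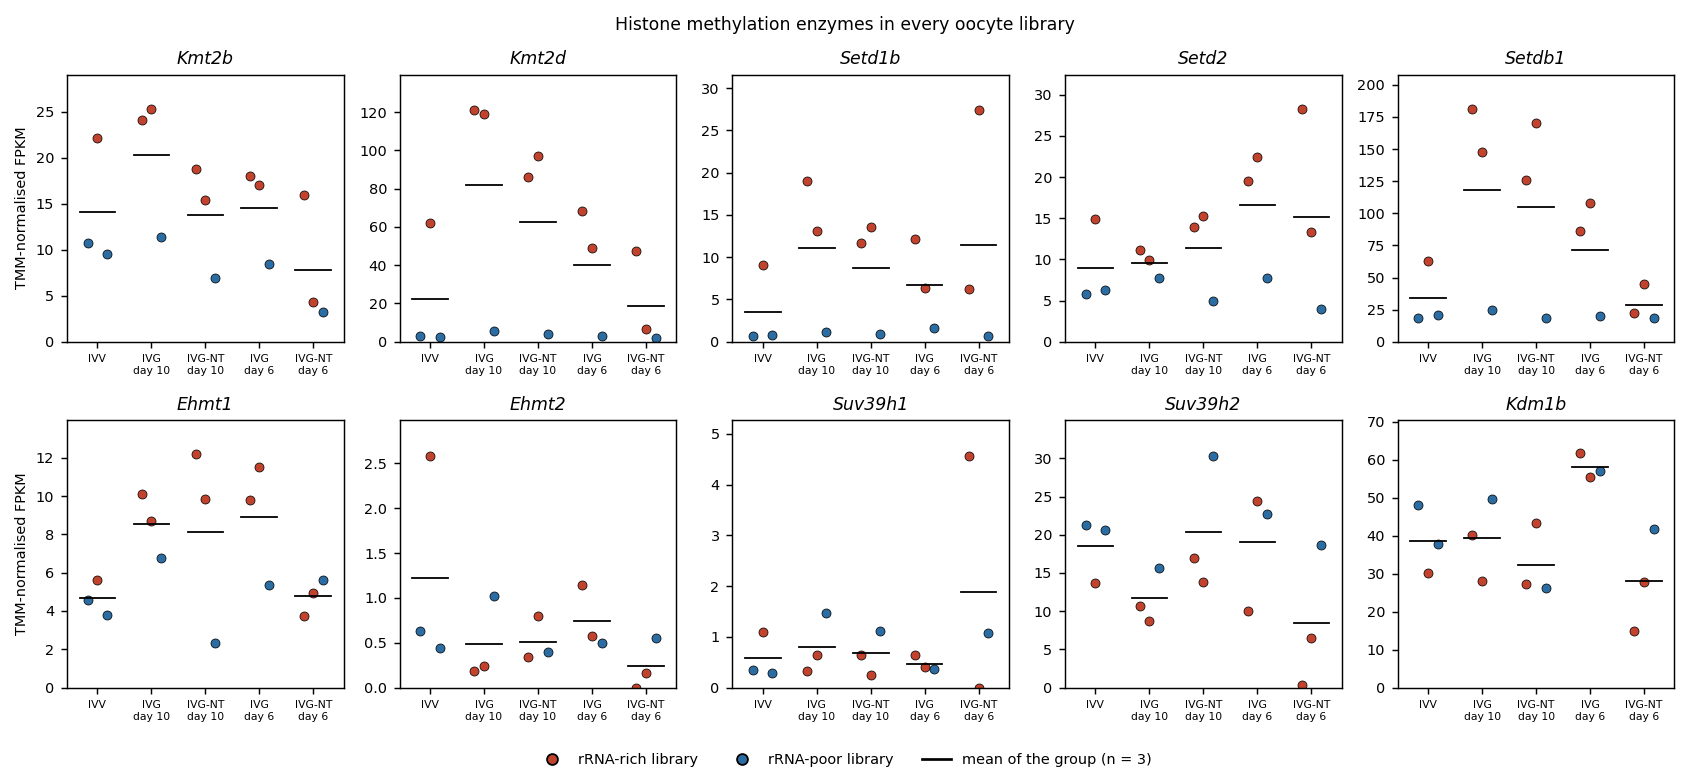
TMM-normalised FPKM (y axes, linear from 0) of the 10 histone methylation enzymes in every library of the 5 groups, with red points for rRNA-rich and blue for rRNA-poor libraries and a line for the mean of 3. For Kmt2d, Setd1b and Setd2 every red point lies above every blue one, while the 3 Kdm1b values of IVG day 6 (55.4 to 61.6) lie above those of IVV and IVG day 10.

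Kmt2d, the H3K4 methyltransferase that acts mostly at enhancers (chr15:98831669-98871204, minus strand, 19.9 kb of exons), ranged 58.2-fold over the 15 libraries. In IVV it stood at 3.2 and 2.3 FPKM in replicates 2 and 4 and at 62 in replicate 3. Replicates 1, 2 and 3 gave 121, 119 and 5.46 in IVG day 10, 86.1, 97.1 and 3.98 for IVG-NT day 10, 68.5, 49 and 2.96 in IVG day 6, and 47.4, 6.7 and 2.08 for IVG-NT day 6. Every rRNA-rich library was above every rRNA-poor one (6.7 to 121 against 2.08 to 5.46), and the 5 groups overlapped throughout. Kmt2d made up 11.3% to 57% of the counts of the 10 genes in rRNA-rich libraries and 6.64% to 12.4% in rRNA-poor ones.

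Setd1b (chr5:123142193-123168629, plus strand, 12.1 kb), a catalytic subunit of a SET1 complex that trimethylates H3K4 at promoters, followed the same division at a lower level. It was at 0.729, 9.08 and 0.806 FPKM in IVV replicates 2, 3 and 4. In replicates 1, 2 and 3 it was at 19, 13.1 and 1.14 in IVG day 10, 11.7, 13.6 and 0.92 for IVG-NT day 10, 12.2, 6.3 and 1.68 in IVG day 6, and 6.2, 27.4 and 0.656 for IVG-NT day 6. The highest value of all belonged to a shallow library, IVG-NT day 6 replicate 2, and no group stood clear of another. Kmt2b (chr7:30568858-30588726, minus strand, 9.6 kb) was at 10.7, 22.1 and 9.56 FPKM in IVV, 24.1, 25.3 and 11.4 in IVG day 10, 18.8, 15.4 and 6.98 for IVG-NT day 10, 18, 17 and 8.48 in IVG day 6, and 15.9, 4.36 and 3.26 for IVG-NT day 6. IVG-NT day 6 replicates 2 and 3 thus held its 2 lowest levels, and the kinds of library overlapped through replicate 2 of that group.

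Setd2 (chr9:110532597-110618633, plus strand, 10.8 kb) showed the division by kind with a narrower span, 9.91 to 28.3 FPKM in rRNA-rich against 3.98 to 7.79 in rRNA-poor libraries. Its values were 5.79, 14.9 and 6.32 in IVV, 11.1, 9.91 and 7.69 in IVG day 10, 14, 15.3 and 4.99 for IVG-NT day 10, 19.5, 22.4 and 7.79 in IVG day 6, and 28.3, 13.3 and 3.98 for IVG-NT day 6. Among rRNA-rich libraries the 2 of IVG day 10 had the lowest levels and IVG-NT day 6 replicate 1 the highest.

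Setdb1 (chr3:95323525-95357202, minus strand, 6.85 kb) was the most abundant H3K9 methyltransferase in all 9 rRNA-rich libraries, whereas Suv39h2 stood above it in 5 of the 6 rRNA-poor ones. It was at 18.8, 62.9 and 20.5 FPKM in IVV replicates 2, 3 and 4, and in replicates 1, 2 and 3 at 181, 148 and 24.5 in IVG day 10, 126, 170 and 18.5 for IVG-NT day 10, 86.6, 108 and 20.2 in IVG day 6, and 22.2, 44.8 and 18.2 for IVG-NT day 6. The 6 rRNA-poor libraries kept to 18.2 to 24.5 whatever their group, whereas the rRNA-rich ones spread from 22.2 to 181 with the day 10 cultures on top. Its exons overlap those of Cers2 by 75 bases and of Gm37500 by 249 bases, and the protocol keeps no strand, so reads there cannot be told apart.

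Ehmt1 (chr2:24789928-24919614, minus strand, 8.12 kb) was at 4.55, 5.61 and 3.81 FPKM in IVV, 10.1, 8.72 and 6.75 in IVG day 10, 12.2, 9.85 and 2.33 for IVG-NT day 10, 9.82, 11.5 and 5.35 in IVG day 6, and 3.72, 4.94 and 5.62 for IVG-NT day 6. The 3 libraries of IVG day 10 were all above the 3 of IVV. Its partner Ehmt2 (chr17:34898469-34914052, plus strand, 5.49 kb) was scarce, at 0.629, 2.58 and 0.445 in IVV, 0.183, 0.238 and 1.02 in IVG day 10, 0.341, 0.802 and 0.393 for IVG-NT day 10, 1.14, 0.578 and 0.492 in IVG day 6, and 0, 0.157 and 0.558 for IVG-NT day 6. The 0 for IVG-NT day 6 replicate 1 allows up to 0.0981 FPKM, counting error alone, so at 0 to 320 counts a library no order of groups could be read for Ehmt2.

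Suv39h2 (chr2:3455815-3475031, minus strand, 4.41 kb) was by far the more abundant of the SUV39 genes. It was at 21.3, 13.7 and 20.6 FPKM in IVV, 10.7, 8.7 and 15.6 in IVG day 10, 17, 13.8 and 30.3 for IVG-NT day 10, 10, 24.4 and 22.7 in IVG day 6, and 0.285, 6.55 and 18.6 for IVG-NT day 6. The value of 0.285 rests on 7 counts in the shallowest library. In IVV, both day 10 groups and IVG-NT day 6 the rRNA-poor libraries were the higher ones, the reverse of the order for Kmt2d. In IVG day 6 an rRNA-rich library (24.4) stood above the rRNA-poor one (22.7). Of the exons of Suv39h2, 8.095% are shared with Dclre1c. Suv39h1 (chrX:8061171-8074760, minus strand, 5.27 kb) was at 0.343, 1.1 and 0.291 in IVV, 0.318, 0.645 and 1.46 in IVG day 10, 0.638, 0.255 and 1.12 for IVG-NT day 10, 0.651, 0.398 and 0.366 in IVG day 6, and 4.56, 0 and 1.08 for IVG-NT day 6. Its highest and its lowest value both came from IVG-NT day 6, and 14.554% of its exons are shared with the antisense gene Gm14820.

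Kdm1b (chr13:47043499-47085279, plus strand, 5.5 kb) was the steadiest member, with a 4.12-fold range over the 15 libraries. It was at 48, 30.1 and 37.9 FPKM in IVV, 40.1, 28.1 and 49.5 in IVG day 10, 27.2, 43.2 and 26.2 for IVG-NT day 10, 61.6, 55.4 and 57.1 in IVG day 6, and 15, 27.7 and 41.6 for IVG-NT day 6. The 3 libraries of IVG day 6 had the highest levels of all, above every library of the other 4 groups, and the lowest came from IVG-NT day 6. Its exons share 505 bases with Dek.

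The first comparison asks what growth in vitro to day 10 changed. No member passed the threshold of the study (an absolute log2 fold change over 1 with an unadjusted P under 0.05) between IVG day 10 and IVV, by edgeR's quasi-likelihood F test, where 2.76% of all genes did. None had a P under 0.05 in this test over all 15 libraries and the filtered genes, or by DESeq2 on the same libraries. Kmt2d had the largest difference, 1.86 (log2, SE 1.49, edgeR adjusted p = 1), with 0.95 within the rRNA-rich and 1.01 within the rRNA-poor libraries. Setdb1 differed by 1.79 (SE 0.90, edgeR adjusted p = 1), and by 1.38 and 0.32 within the kinds. The libraries of Ehmt1 did not overlap between the groups (log2 difference 0.87, with 0.74 and 0.70 within the kinds, two-sided exact permutation p = 0.1, the smallest that 3 against 3 libraries allow), as was the case for 11.9% of all genes. The median difference of the 10 genes was 0.51, with 8 of 10 positive, against -0.20 over all genes, and with library kind as a covariate these medians were 0.31 and 0.03. Without IVV replicate 3, which left IVV with rRNA-poor libraries only, Kmt2d (4.84), Setd1b (3.80) and Setdb1 (2.52) passed the threshold, where 3.43% of genes did, and without IVG day 10 replicate 3 Setdb1 did (2.27), where 4.56% of genes did.

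Between IVG-NT day 10 and IVV, Setdb1 had the largest difference, 1.62 (log2, SE 0.90, edgeR adjusted p = 1), made up of 1.22 within the rRNA-rich and -0.09 within the rRNA-poor libraries. Kmt2d differed by 1.47 (SE 1.47), or 0.56 and 0.55 within the kinds. No member passed the threshold, which 3.29% of genes did by edgeR, and none was free of overlap, against 11.6% of genes. The median of the members was 0.28 and that of all genes -0.19, or 0.31 and 0.01 with library kind as a covariate. Leaving out IVV replicate 3 brought Kmt2d (4.42), Setd1b (3.43) and Setdb1 (2.33) past the threshold along with 3.7% of genes, and leaving out IVG-NT day 10 replicate 3 brought Setdb1 past it (2.12) along with 4.77% of genes. Without IVG-NT day 10 replicate 2 the difference of Setdb1 was 1.04. IVG and IVG-NT share the IVV libraries in these 2 comparisons.

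NT-4 itself was compared at day 10 within the culture. The largest difference between IVG-NT and IVG was that of Suv39h2, 0.80 (log2, SE 0.94, edgeR adjusted p = 1), with 0.66 within the rRNA-rich and 0.96 within the rRNA-poor libraries. Without IVG-NT day 10 replicate 3 it was 0.40. The other 9 ranged from -0.56 for Kmt2b to 0.25 for Setd2. None passed the threshold, against 1.24% of genes by edgeR, and for none were the libraries apart, against 3.59%. These libraries were taken as paired by replicate number, and with the number as a block Suv39h2 differed by 0.74 (SE 0.89). Replicate 3 is the rRNA-poor library of both groups, so the block also carries the kind of library. The blocked fit, made on the cultured groups alone, left 0 members past the threshold and 144 of 19272 genes, against 151 for the same libraries without the block. With an SE of 0.57 for Kdm1b up to 1.49 for Suv39h1, differences of the size of 1 on the log2 scale could not be told from the spread of libraries, so equal levels are not shown.

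At day 6 the values of NT-4 cultures fell mostly below those of IVG. The median of the 10 members was -0.97 against -0.27 over all genes, with 8 of 10 negative, or -0.47 against 0.003 with DESeq2 size factors, but the group includes the 2 shallow libraries and no member passed the threshold, which 11.6% of genes did by edgeR. The largest difference was in the other direction, for Suv39h1 (1.99, SE 1.54, edgeR adjusted p = 0.627), with 1.54 within the rRNA-poor libraries. It rested on the 134 counts of IVG-NT day 6 replicate 1 and was 0.23 without that library. No value is given within the rRNA-rich libraries, since replicate 2 had 0 counts and its log2 CPM is set by the prior count. Kdm1b lay lower in all 3 libraries of IVG-NT day 6 than in all 3 of IVG day 6 (15 to 41.6 against 55.4 to 61.6 FPKM). Its log2 difference was -1.05 (SE 0.57, edgeR adjusted p = 0.474, two-sided exact permutation p = 0.1), with -1.52 within the rRNA-rich and -0.46 within the rRNA-poor libraries. Groups without overlap were found for 8.45% of genes. With library kind as a covariate in the fit, Kdm1b was the member past the threshold (-1.10, SE 0.40, edgeR adjusted p = 0.267), as were 15.8% of genes. Leaving out a single library of IVG-NT day 6 brought members past the threshold. Kmt2b passed without replicate 1 (-1.93), where 10.2% of genes did, and Suv39h1 without replicate 2 (2.59), where 10.1% did. Without replicate 3, Suv39h2 (-2.48) and Kdm1b (-1.45) passed, 2 of 10 members where 29.1% of genes did. With the shallow replicates 1 and 2 both left out, Kmt2b passed it (-2.05), as did 2.7% of genes. That value sets a lone rRNA-poor library, assumed to vary like the other groups, against 2 rRNA-rich and 1 rRNA-poor libraries of IVG day 6, so group and kind cannot be told apart in it.

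Against IVV, IVG day 6 had no member past the threshold, which 4.59% of genes passed by edgeR. Setdb1 had the largest difference, 1.07 (log2, SE 0.89, edgeR adjusted p = 1), with 0.62 within the rRNA-rich and 0.04 within the rRNA-poor libraries. Kdm1b was higher in all 3 libraries of IVG day 6 than in all 3 of IVV, with a log2 difference of 0.59 (SE 0.57, edgeR adjusted p = 1, exact permutation p = 0.1), 0.96 and 0.42 within the kinds, where 11.7% of genes had groups without overlap. The median was 0.71 for the members and -0.22 for all genes, or 0.36 and -0.01 with library kind as a covariate. Granulosa cell markers summed to 53.8 to 145 CPM in IVG day 6 and 183 to 251 in IVV, and their part in these values was not tested. Without IVV replicate 3, Setdb1 differed by 1.80 and Kmt2d passed the threshold (3.80), as did 4.54% of genes, and without IVG day 6 replicate 2 Setdb1 differed by 0.65.

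From day 6 to day 10 of culture without NT-4 the members split evenly, 5 positive and 5 negative, with a median of 0.21 against 0.05 over all genes. Kmt2d had the largest difference, 1.03 (log2, SE 1.45, edgeR adjusted p = 1), with 1.05 within the rRNA-rich and 0.88 within the rRNA-poor libraries. Leaving out 1 library moved it from 0.48 without IVG day 6 replicate 3, which is rRNA-poor, to 1.66 without IVG day 6 replicate 1, which is rRNA-rich. It was 0.64 and 0.66 without replicates 1 and 2 of IVG day 10, and 1.58 without replicate 3. These libraries were taken as paired by number. The blocked fit gave 1.02 with an SE of 0.49 (edgeR adjusted p = 1), against an SE of 1.32 for the same cultured groups without the block. Replicate 3 is the rRNA-poor library of each cultured group, so the block also carries the kind of library. With library kind as a covariate over all libraries, Kmt2d differed by 0.98 with an SE of 0.49, so the narrower SE cannot be credited to pairing. Kdm1b was lower on day 10 in all 3 libraries than on day 6 (28.1 to 49.5 against 55.4 to 61.6 FPKM). Its log2 difference was -0.57 (SE 0.57, edgeR adjusted p = 1, exact permutation p = 0.1 without pairing), with -0.80 within the rRNA-rich and -0.21 within the rRNA-poor libraries. Groups were free of overlap for 7.42% of genes. With DESeq2 size factors the groups of Kdm1b overlapped. No member passed the threshold, against 2.9% of genes.

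With NT-4, Setdb1 differed most between day 10 and day 6, by 1.88 (log2, SE 0.91, edgeR adjusted p = 0.398). The difference was 2.21 within the rRNA-rich libraries and 0.02 within the rRNA-poor ones. Kmt2d differed by 1.74 (SE 1.48), with 2.36 and 0.94 within the kinds. No member passed the threshold, which 12.7% of genes did by edgeR, and none was free of overlap, against 11% of genes. With library kind as a covariate, Setdb1 (1.38, SE 0.44, edgeR adjusted p = 0.234) and Kmt2d (1.46, SE 0.49, edgeR adjusted p = 0.241) passed it in edgeR, as did 16.9% of genes. Among the rRNA-rich libraries alone Setdb1 (2.19), Kmt2d (1.84) and Ehmt1 (1.40) did, where 19.5% of genes passed, and these rest on the 2 shallow libraries of IVG-NT day 6. Leaving out 1 library changed calls too. Setdb1 passed without IVG-NT day 10 replicate 3 (2.38) and without IVG-NT day 6 replicate 2 (2.30), where 11.2% of genes passed in both. Kmt2b did so without IVG-NT day 6 replicate 1 (1.85), where 10.6% of genes did, and Kmt2d, short of the threshold, was at 3.83 there. Suv39h2 passed without IVG-NT day 6 replicate 3 (2.58), 1 of 10 members where 30.8% of genes did. The effect of NT-4 at day 10 minus that at day 6 was largest for Suv39h1 (-2.26, SE 2.13, edgeR adjusted p = 0.997), with -1.92 within the rRNA-poor libraries. It was -0.50 without IVG-NT day 6 replicate 1 and -1.50 without IVG day 10 replicate 3. It passed the threshold in no member, against 6.37% of genes. Without IVG-NT day 6 replicate 3, 1 of 10 members, Suv39h2, passed it (3.28), where 21.1% of genes did.

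**Figure D2:**
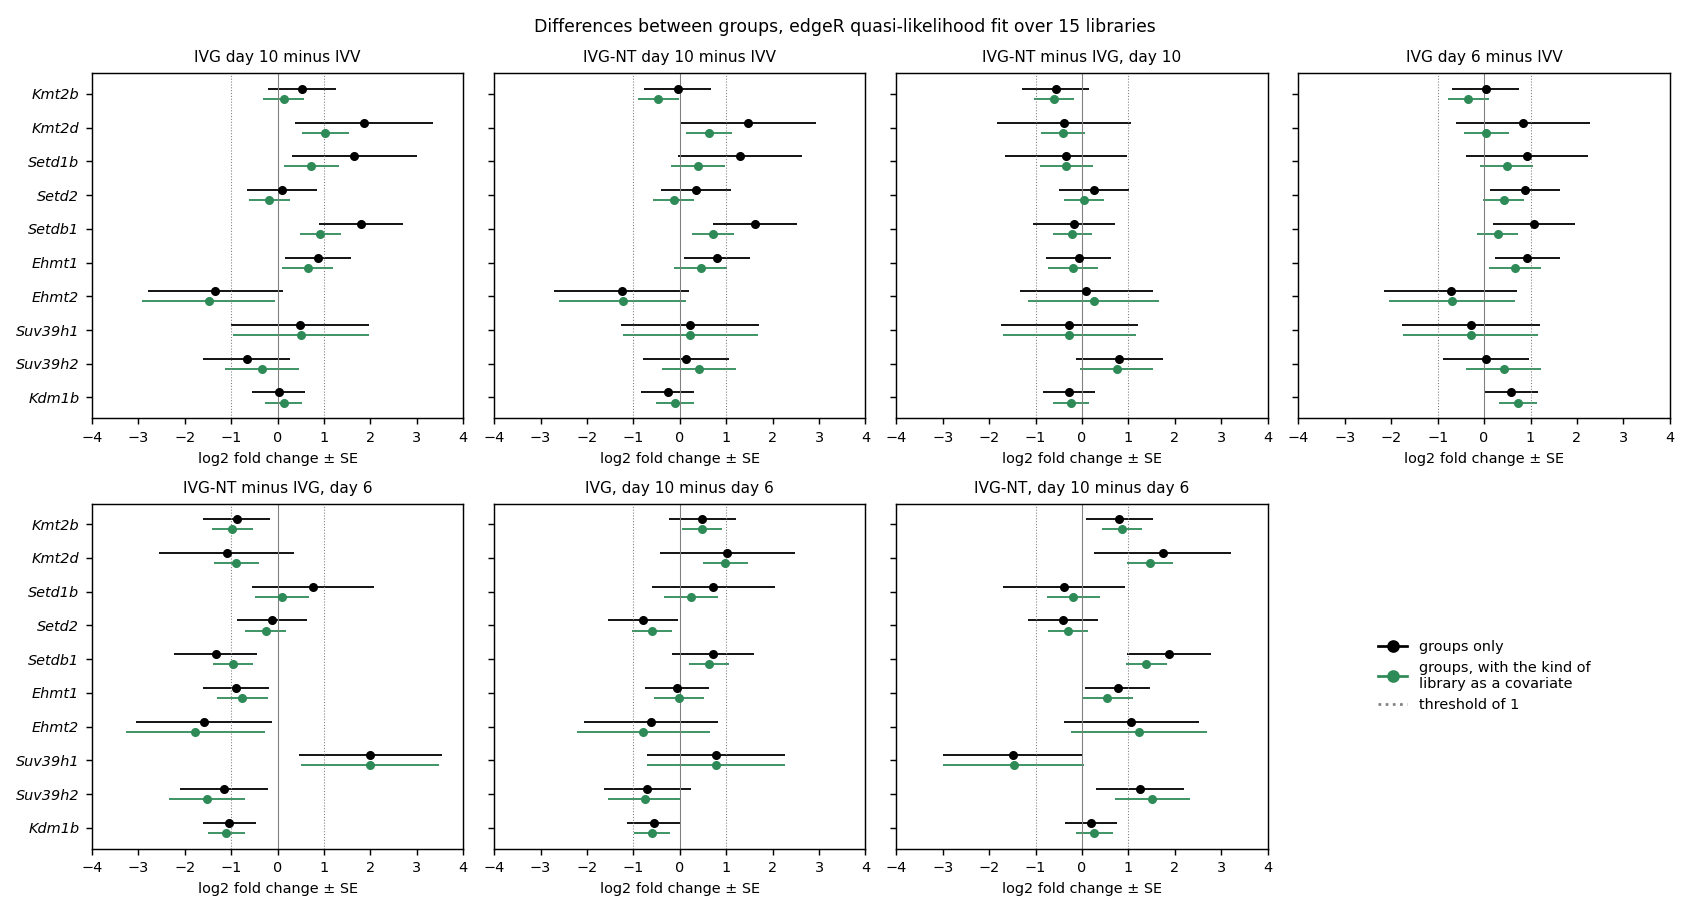
Log2 fold changes with their SE (x axes) of the 10 enzymes in the 7 comparisons, from group means over 15 libraries (black) and with the kind of library added as a covariate (green). The covariate narrowed the median SE for IVG day 10 against IVV from 0.92 to 0.53, and the dotted lines mark a log2 fold change of 1 in either direction.

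The kind of library separated the members far more than the groups did. In the fit with group and kind, 5 of the 10 genes were higher in rRNA-rich libraries at an edgeR adjusted p under 0.05 and past a log2 difference of 1. By the adjusted p 23.7% of genes differed, and by the study's threshold 35.1%. Kmt2d was 19.6-fold higher (log2 4.29, SE 0.39, edgeR adjusted p = 6.51e-06) and Setd1b 12.2-fold (log2 3.61, SE 0.45, edgeR adjusted p = 8.56e-05). Setdb1 was 4.17-fold higher (adjusted p = 0.000475, edgeR), Setd2 2.6-fold (adjusted p = 0.00598) and Kmt2b 2.36-fold (adjusted p = 0.00972). Ehmt1 differed by 0.66 (SE 0.38), Suv39h1 by 0.03, Kdm1b by -0.34, Ehmt2 by -0.35 and Suv39h2 by -1.06 (SE 0.52), none of them past an adjusted p of 0.05. The median over all genes with a known length was -0.54.

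This order ran with the length of the union of exons. Across the 10 genes the difference between kinds and the length of exons had a Spearman correlation of 0.89, from Suv39h2 with 4.41 kb to Kmt2d with 19.9 kb, and over the 15510 protein-coding genes tested it was 0.47. With the longest coding transcript, where Suv39h1 is the shortest member (3.12 kb) and Setdb1 has 4.66 kb, the correlation across the 10 genes was 0.77. These points share the same 15 libraries and are given as a description. By length class the median difference of protein-coding genes went from -2.19 under 2 kb to 0.07 at 4 to 6 kb and 1.08 over 10 kb. Kmt2d, Setd1b, Setd2, Kmt2b and Setdb1 lay above the median of their class, and Ehmt1, Ehmt2, Suv39h1, Suv39h2 and Kdm1b below it. Among all genes Kmt2d was at the percentile 97, Setd1b at 95.8 and Setdb1 at 88.7. With the GC content of the longest coding transcript the correlation over 15470 protein-coding genes was -0.009, and among the members GC content ran from 43% for Suv39h2 to 60.8% for Ehmt2. The part of rRNA share, depth and length in these differences was not tested, and the labels name no batch.

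**Figure D3:**
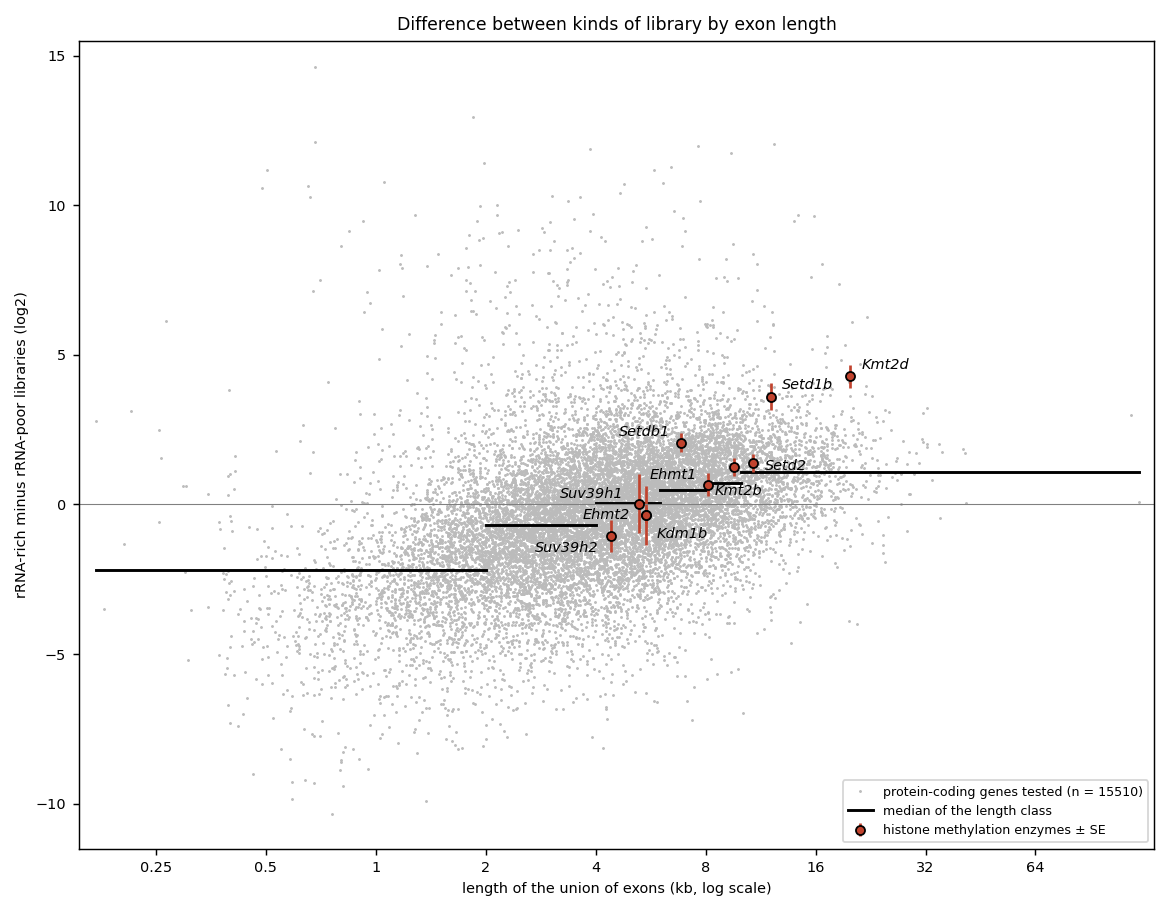
Log2 difference between rRNA-rich and rRNA-poor libraries (y axis) against the length of the union of exons (x axis, kb, log scale) for protein-coding genes (grey), with the median of each length class (black) and the 10 enzymes with SE (red). The difference rises with length from Suv39h2 (-1.06) to Kmt2d (4.29).

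Levels of the members were also compared with each other across the 15 libraries, which share kind and depth, as a description. Kmt2d and Setdb1 had a Pearson correlation of 0.89 (log2 CPM) and Setdb1 and Ehmt1 one of 0.84. After each kind of library was centred, these stood at 0.61 and 0.76, whereas the correlation of Kmt2d with Setd1b went from 0.83 to -0.21 (0.74 when IVG-NT day 6 replicate 2 was left out before centring) and with Setd2 from 0.76 to -0.07. Kmt2b and Kmt2d stayed at 0.84, but at 0.53 when IVG-NT day 6 replicate 2 was left out before centring. The values of 0.82 between Ehmt2 and Suv39h2, 0.70 between Ehmt2 and Kdm1b and 0.67 between Suv39h2 and Kdm1b rested on the shallow IVG-NT day 6 replicate 1, with 0 counts of Ehmt2 and 7 of Suv39h2. Without that library they were 0.26, 0.38 and 0.22, and 0.26, 0.37 and 0.11 after centring. Over all genes tested, the profiles most like Kmt2d were those of Tcf20 (0.985) and Pom121 (0.983). Setdb1 was most like Dcp1a (0.992) and Slc7a11 (0.984), Setd1b like Pde3b (0.977) and Xpr1 (0.976), and Setd2 like Ttn (0.973) and Fzd3 (0.965). Kmt2b was most like Plekhg5 (0.947) and Sipa1l3 (0.944), and Ehmt1 like Ndrg4 (0.933) and Casc3 (0.906). Suv39h2 was most like Mad2l2 and Susd3 (0.979 each, or 0.886 and 0.851 without IVG-NT day 6 replicate 1) and Ehmt2 like Ttf2 (0.92, or 0.724 without that library). Suv39h1 was most like Vgll4 (0.934) and Proca1 (0.93), at 0.806 and 0.794 without IVG-NT day 6 replicate 2. Kdm1b had the least close neighbours, Mef2a (0.859) and the lincRNA Gm12678 (0.841).

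**Figure D4:**
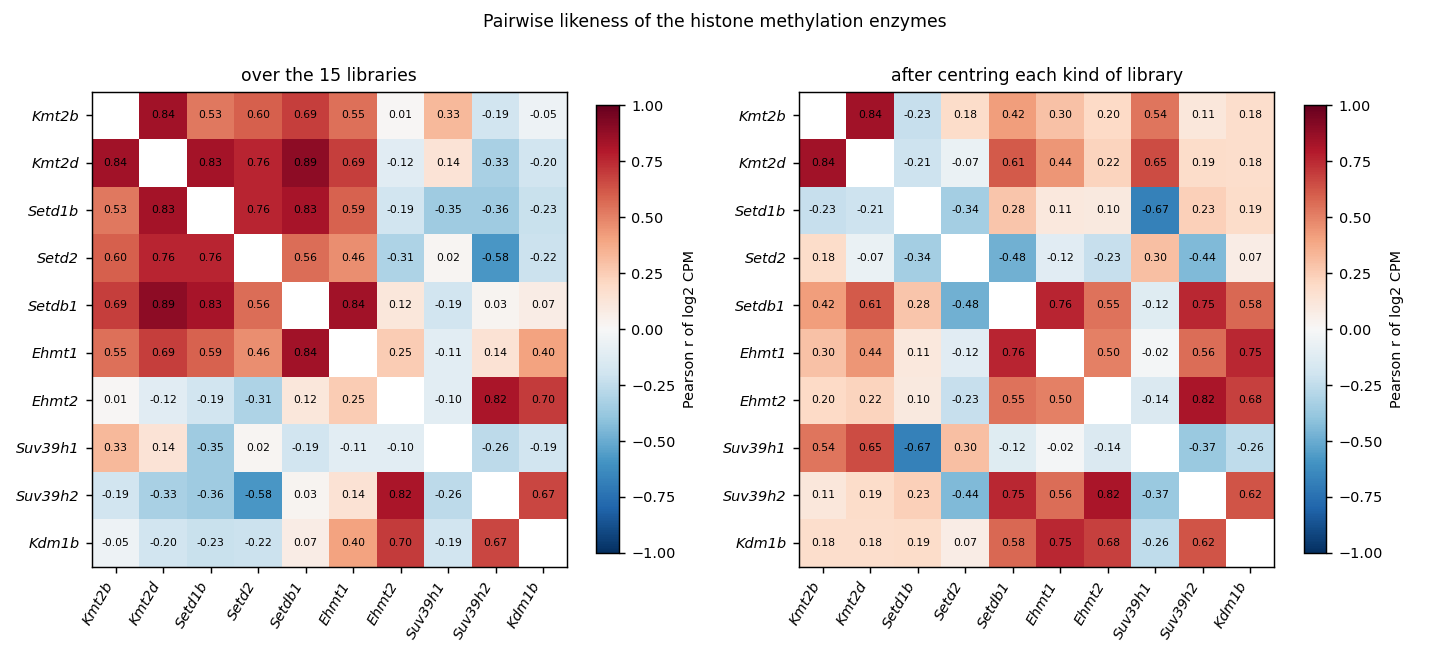
Pearson correlation of log2 CPM for each pair of the 10 enzymes, over the 15 libraries (left) and after the mean of each kind of library was subtracted (right), on a colour scale from -1 to 1. Kmt2b with Kmt2d stays at 0.84, while Kmt2d with Setd1b goes from 0.83 to -0.21, or to 0.74 without IVG-NT day 6 replicate 2. The 0.82 of Ehmt2 with Suv39h2 in both panels falls to 0.26 in each without IVG-NT day 6 replicate 1.

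The members were set beside 65 other enzymes and partners of histone methylation, all of which were tested. These comprise writers, complex subunits, cofactors and erasers of H3K4, H3K9, H3K27, H3K36, H3K79 and H4K20 methylation. Between IVG day 10 and IVV, 1 was higher and 1 lower past the threshold, 3.08% of the list against 2.76% of all genes. Between IVG-NT day 10 and IVV 2 were lower, 3.08% of the list against 3.29% of all genes. The H3K4 demethylase Kdm5a was lower in both. It stood at 97.6 and 91.2 CPM in IVV replicates 2 and 4 but at 6.14 in IVV replicate 3, at 3.13 to 12.4 for IVG and 1.31 to 5.2 for IVG-NT at day 10. The log2 difference was -3.17 (SE 1.39) for IVG and -4.57 (SE 1.49) for IVG-NT, with an edgeR adjusted p of 1 in both. Within the rRNA-poor libraries the cultured groups, day 6 included, were at 3.79 to 12.4 CPM, all below IVV, whereas the rRNA-rich library of IVV overlapped them. Prdm16, listed among H3K9 methyltransferases, was higher in IVG day 10 than in IVV (2.54, SE 1.15, edgeR adjusted p = 1), at 43.6 to 154 CPM against 4 to 48.8. The H3K4 monomethyltransferase Setd7 had 29, 29 and 31 counts in IVV, while the libraries of day 10 had 8, 15 and 4 without NT-4 and 0 in all 3 with it. It passed the threshold for IVG-NT day 10 against IVV and against IVG day 10, with an edgeR adjusted p of 1. No fold is given because these are few counts against 0. Between IVG-NT and IVG at day 10, 1.54% of the list passed, against 1.24% of all genes.

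At day 6, 3 of the 65 were higher and 7 lower in IVG-NT than in IVG, 15.4% of the list against 11.6% of all genes. The lowest P values were those of Smyd1, Dot1l, Prdm16 and Kdm6a. Dot1l, the H3K79 methyltransferase, was at 24.9, 1.21 and 12.9 CPM in IVG-NT day 6 and at 103, 70.1 and 56.2 in IVG day 6 (log2 -2.55, SE 0.94, edgeR adjusted p = 0.381). Kdm6a, which demethylates H3K27 and is a subunit of the KMT2D complex, was at 30.7, 35.3 and 73.8 CPM against 188, 166 and 97.6 (log2 -1.69, SE 0.67, edgeR adjusted p = 0.39). Prdm16 differed by -2.97 (SE 1.18, edgeR adjusted p = 0.388). In all 3 of these genes each library of IVG-NT day 6 was below each of IVG day 6. They were named for their small P in this same comparison, where 8.45% of all genes had groups without overlap. Smyd1, a methyltransferase known from muscle, had 128 and 290 counts in IVG-NT day 6 replicates 1 and 2 and 0 in replicate 3 and in the 3 libraries of IVG day 6 (edgeR adjusted p = 0.381).

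From day 6 to day 10 the list held 1 lower gene without NT-4, 1.54% of the list against 2.9% of all genes. With NT-4 it held 7 higher and 2 lower genes, 13.8% of the list against 12.7% of all genes. Without NT-4 the lower gene was the H3K9 demethylase Kdm4c, which had 88, 353 and 41 counts on day 6 and 12, 0 and 26 on day 10 (edgeR adjusted p = 1). With NT-4, Dot1l (3.37, SE 0.97), Prdm16 (4.11, SE 1.24) and the demethylase Phf8 (3.20, SE 1.06) were higher on day 10, with an edgeR adjusted p of 0.357 each, and Smyd1 was lower with the same adjusted p. Against IVV, IVG day 6 had 0 of the 65 past the threshold, against 4.59% of all genes. In the edgeR fit of group means over all 15 libraries and the filtered genes, no gene had an adjusted p under 0.05 in the 7 comparisons between groups. In them 261 to 2661 genes had an unadjusted P under 0.05. DESeq2 gave 51 to 715 genes with an adjusted p under 0.05 in these comparisons, none of them among the 10 members. In that edgeR fit and by DESeq2 on the same libraries, no member had an unadjusted P under 0.05, the difference of NT-4 effects included. Some members had one in other settings, such as library kind as a covariate, as given for the comparisons above.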

How the data were processed

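Oocyte libraries were grouped by their titles, which number IVV 2, 3 and 4 and the other groups 1, 2 and 3. The authors removed reads with adaptors or a quality under 20, mapped what remained against mm10 by HISAT2, and deposited raw counts for Ensembl genes, library by library. How counts were taken per gene, the annotation release and tool versions are not given in the sources used here. Names, positions and exon lengths came from GENCODE vM21 (GRCm38), which named 99.5% of identifiers.

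The counts were tested by edgeR 4.0.16 under R 4.3.3: filterByExpr (minimum count 10), TMM, and the quasi-likelihood F test on group means over all 15 libraries, with Benjamini-Hochberg adjustment over 21009 genes. DESeq2 1.42.0 was an alternative. The scripts were tested on simulated data. SMART-Seq2 counts carry no molecular identifiers, so floors cover counting error only. The limit of 5% of counts on CT010467.1 divides the kinds of library. Within-kind values are differences of mean log2 CPM (prior count 2). P-values measure the spread between libraries, which the methods take from 3 replicated experiments.

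Members, lists and tests were chosen with earlier results of these data known. Each member was named with every library's value, and given full statistics where past the threshold or where it had the largest difference. Of the other enzymes, at most 4 per comparison were named, by smallest P. Same-numbered libraries deviated together in IVG-NT and IVG day 10 (r 0.37 to 0.732) and in IVG day 10 and day 6 (0.147 to 0.538), which were taken as paired. The choice of pairs was made on these correlations, in the same data. In each cultured group number 3 is the rRNA-poor library, so these correlations cannot tell a shared experiment from a shared kind of library. A table of the whole series repeats the same counts and was not used. Granulosa cell libraries were not analysed here. For Ehmt2, the gene with the next most like profile is not reported here.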

Additional observations from a re-analysis of the deposited data

Results flagged for a closer look

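In the test of the NT-4 effect at day 10 minus day 6, Smyd1 passed the threshold of the study. So did 6.37% of all genes and 1.54% of the 65 listed enzymes and partners. The fitted value for Smyd1 was -13.73 on the log2 scale (SE 4.19, edgeR adjusted p = 0.664). The size of this value depends on the prior count, because Smyd1 had 128 and 290 counts in IVG-NT day 6 replicates 1 and 2, the 2 shallowest libraries, 0 in replicate 3, 0 in all of IVG day 6, and 0 to 16 counts in the libraries of day 10. It did not pass after adjustment.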

How the results depend on the processing

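Counts of members past the threshold were 0 in every comparison, and under the alternatives 100 counts were also 0 and 28 were not. DESeq2 size factors, the DESeq2 Wald test, the rRNA gene left out and a fit of the compared groups alone gave 0 throughout. Without a filter on low counts, 2 passed for IVG day 10 against IVV (Kmt2d, Setdb1), 1 for IVG-NT day 10 against IVV and 1 for IVG-NT day 10 against day 6 (Setdb1). Of all genes, 4.49%, 4.33% and 11.6% passed in these comparisons. In rRNA-rich libraries alone, where IVV is a single library, 1 passed for IVG day 10 against IVV and 1 for IVG-NT day 10 against IVV (1.68% and 1.53% of genes). In the same setting 2 passed for IVG-NT against IVG at day 6, 3 for IVG-NT day 10 against day 6 and 1 for the difference of NT-4 effects (18.1%, 19.5% and 11.8% of genes). With the kind as a covariate, 1 passed at day 6 and 2 for IVG-NT day 10 against day 6 (15.8% and 16.9% of genes). With the 2 shallow libraries left out, a setting added after seeing the data, 1 passed in each of these 2 comparisons. Leaving out each library in turn gave 0 to 3 for IVG day 10 and for IVG-NT day 10 against IVV, 0 to 2 for IVG-NT against IVG at day 6, and 0 to 1 for IVG day 6 against IVV, for IVG-NT day 10 against day 6 and for the difference of NT-4 effects. By DESeq2 size factors, also added, 0 members and not 1 were free of overlap between IVG day 10 and day 6.

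With the replicate number as a block, 0 members passed in the comparisons taken as paired. There 0.747% (IVG-NT against IVG, day 10) and 2.51% (IVG, day 10 against day 6) of genes did. For IVG day 6 against IVV 1 passed (Kmt2d, -2.88), as did 3.34% of genes. The block gave 1 for IVG-NT against IVG at day 6 (Kdm1b, -1.11), where 7.32% of genes passed. It gave 2 for IVG-NT day 10 against day 6 (Kmt2d, 1.63, and Setdb1, 1.36), where 8.46% of genes passed. In the last 2 comparisons same-numbered libraries correlated at 0.066 to 0.328, with 1 or more pairs under 0.1, and were not taken as paired. They share the kind of library as well as the number, so the block also carries the kind. For comparisons with IVV, where numbers 2 and 3 alone are shared and deviations were opposed (r -0.522 to -0.216), the block turned Kmt2d to -1.83 for IVG day 10 and Setdb1 to -0.33 for IVG day 6. The number and the kind of library run against each other there. The cultured groups without IVV and without the block, a fit added after seeing the data, gave 0 members in each comparison.

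DESeq2 size factors moved the median of all genes from -0.20 to -0.39 for IVG day 10 against IVV and from 0.40 to 0.04 for IVG-NT day 10 against day 6, and that of the members from 0.51 to 0.37 and from 0.79 to 0.21. For IVG-NT against IVG at day 6 they moved it from -0.27 to 0.003 over all genes and from -0.97 to -0.47 over the members. Over all genes, counts past the threshold moved by more than 1.5 times in several settings, for example from 579 to 1637 without the filter (IVG day 10 against IVV), from 2430 to 451 with the compared groups alone and to 4630 in rRNA-rich libraries alone (IVG-NT against IVG, day 6), and from 2661 to 7211 without IVG-NT day 6 replicate 3.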
